A study of Mus musculus with 6 samples.

Results

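Nitric oxide, prostaglandins and endothelin are vasoactive mediators that the lung makes and clears, and the RNA of 8 mouse genes of these pathways is described here in the lungs of endotoxaemic mice. The genes were chosen by name, by a rule that used no measured value but with earlier results of these data known, and are 8 of the 22911 genes that could be named on the array: Nos2 of nitric oxide synthesis, Ptgs1, Ptgs2, Ptges, Ptgis and Hpgd of prostanoid synthesis and breakdown, and Edn1 and Ednra of the endothelin pathway. All 6 animals were male C57BL6 mice aged 10 weeks, starved for 16 h and then injected i.p. with LPS (bacterial endotoxin) at 20 mg per kg. The 3 saline-treated and the 3 rhTM-treated mice were given their agent 3 h and 24 h after LPS, and lungs were taken at 30 h. rhTM is recombinant human thrombomodulin, a soluble form of an endothelial anticoagulant receptor. Each lung went onto its own 1-colour array, so n = 3 mice per group, and both groups had been given LPS. The comparison therefore asks what rhTM changed after LPS and not what LPS changed.

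Inducible nitric oxide synthase makes nitric oxide, a vasodilator, from arginine. Cyclooxygenases turn arachidonic acid into prostaglandin H, from which separate synthases make prostaglandin E and prostacyclin, and the lung is a known site of prostaglandin clearance. Endothelin-1 is a vasoconstrictor peptide released mostly by endothelium, and its A-type receptor lies on smooth muscle.

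One limit of the deposit touches every result. In a table of processed values deposited beside the scanner output, 2 columns are exchanged: what the table labels saline replicate 1 equals the scanned array of rhTM replicate 2 at 99.8% of probes (to within 0.1%), and what it labels rhTM replicate 2 equals that of saline replicate 1 at 99.8%. The labels and file headers do not settle which assignment is right, so results are given by the scanner output and then by the table. Saline replicate 1 also stood apart in its spike-in controls, whose slope was 0.826 and out of range, against 1.071 to 1.09 on the other 5 arrays. As scanned, saline replicate 1 and rhTM replicate 3 shared slide 2, and the other 4 arrays were on slide 1. By the table, slide 2 carried 2 rhTM arrays and no saline array. Between 36243 and 40647 of 56605 probes were well above background on an array. The lung surfactant gene Sftpc read 482 to 828 and the alveolar type 1 cell gene Ager 133 to 173 in the scaled units used below, so that markers of the labelled tissue were present. Values below are scaled signals, the processed signal of a gene's brightest probe divided by the array's 75th percentile.

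None of the 8 genes differed between rhTM-treated and saline-treated mice by limma with Benjamini-Hochberg adjustment over all 16362 genes tested. The adjusted p was 0.9999 for each of them. All 8 were tested and well above background on all 6 arrays. Over all genes 0 passed (percent called: 0), while 305 genes, or 1.86%, had an unadjusted p under 0.05 and 0 of the 8 did. Group values overlapped for all 8 genes, whereas 5.52% of all genes had groups without overlap. The log2 fold change was above 0 for 5 of the 8 genes, with a median of 0.09, beside 50.7% above 0 and a median of 0.00261 over all genes. By the table, 0 genes passed as well. There, 3 of the 8 genes lay above 0 and the median of the 8 was -0.08, beside 46.0% above 0 and a median of -0.025 over all genes. Of the 8, 2 (Hpgd and Ptgs1, both below 0) had groups without overlap and an unadjusted limma p under 0.05. Of all genes, 21.7% had groups without overlap and 14.0% such a p. By both assignments, the largest difference of the 8 was that of Hpgd.

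**Figure D1:**
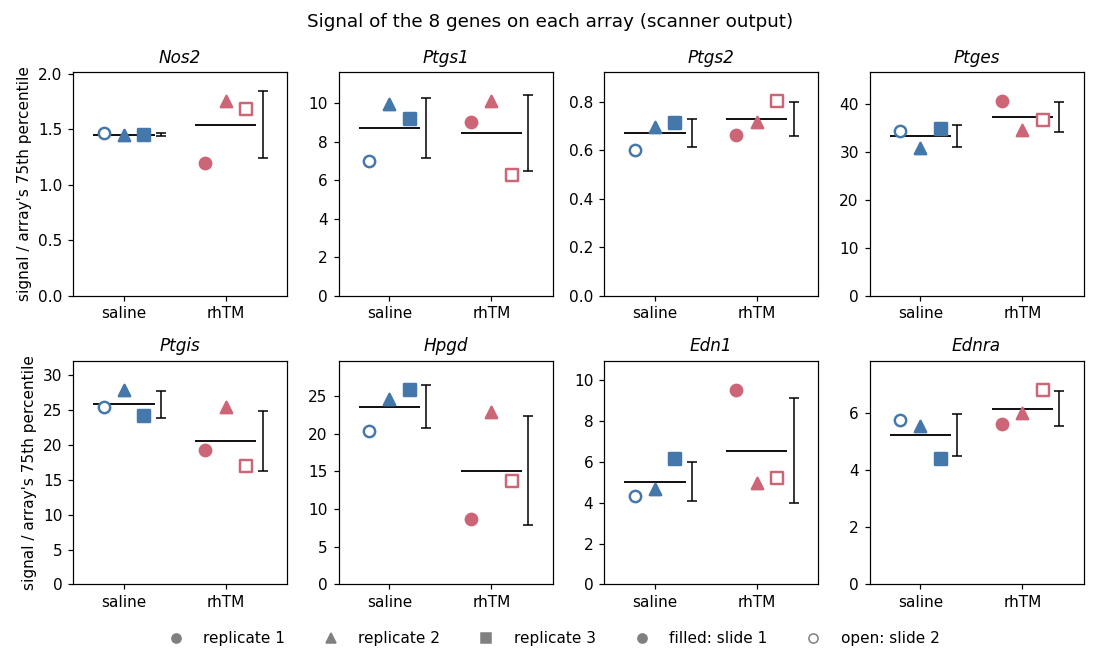
Scaled signal of the 8 genes on each array, in the saline-treated (blue) and rhTM-treated (red) group by the scanner output, on axes that start at 0. Marker shape gives the replicate and fill the slide, the line is the group mean and the bar beside it the SD (n = 3). Groups overlap for all 8 genes, and rhTM replicate 1 lies highest for Ptges and Edn1 and lowest for Nos2 and Hpgd.

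The prostanoid genes are given first, since they held the largest difference. Hpgd encodes 15-hydroxyprostaglandin dehydrogenase, the enzyme that starts the breakdown of prostaglandins. Its scaled signal was 20.4, 24.7 and 25.8 in saline replicates 1, 2 and 3 and 8.63, 22.9 and 13.8 in rhTM replicates 1, 2 and 3. Of the rhTM-treated mice, replicates 1 and 3 lay below all saline-treated mice and replicate 2 lay within their range. The means were 15.1 ± 7.22 in rhTM-treated and 23.6 ± 2.89 in saline-treated mice (SD, n = 3 each). On the mean of log2 values, Hpgd was 1.68-fold lower after rhTM, a log2 fold change of -0.75 (SE 0.34) with a 95% interval of -1.56 to 0.06. The exact two-sided permutation test gave p = 0.2, where 0.1 is the smallest that 3 against 3 allows. On slide 1 alone the log2 difference was -0.84 (2 arrays against 2), and on slide 2 it was -0.56 (1 against 1). Without rhTM replicate 1 the log2 fold change was -0.40, and without both exchanged arrays it was -1.21 (limma adjusted p = 0.665).
By the table, the same arrays gave a log2 fold change of -0.86 with a 95% interval of -1.57 to -0.15. The groups did not overlap there, and the limma adjusted p was 0.321. With the slide as a block, which in the table sets rhTM replicate 1 alone against the saline arrays, Hpgd reached -1.50 with a limma adjusted p of 0.0434. That fit called 432 genes and was added after the data were seen.

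Hpgd also varied more from mouse to mouse than most genes. Its range over the 6 arrays was 1.58 log2 units, above that of 94.3% of all genes tested, whose median range was 0.54. Edn1 had a range of 1.14, above that of 86.8% of genes, and Ptges had the smallest of the 8, 0.40. The promoters of Hpgd and Edn1 are shown because these genes lay at opposite ends in rhTM replicate 1, lowest for Hpgd and highest for Edn1. The windows run from 250 bases before to 50 after the annotated start and were taken from RefSeq (GRCm38.p6), whose promoter table held 6 of the 8 genes and no entry for Nos2 or Ptgis. That of Hpgd lies at chr8:56294302-56294601 and that of Edn1 at chr13:42301226-42301525, both on the plus strand. Capitals mark the matches, on either strand, to the TATA box spelled TATAAA, the Sp1 core GGGCGG, the CCAAT box, the AP-1 motif TGACTNA, the hypoxia response core ACGTG and the GATA motif AGATAA, none of which overlap in these windows.
Hpgd: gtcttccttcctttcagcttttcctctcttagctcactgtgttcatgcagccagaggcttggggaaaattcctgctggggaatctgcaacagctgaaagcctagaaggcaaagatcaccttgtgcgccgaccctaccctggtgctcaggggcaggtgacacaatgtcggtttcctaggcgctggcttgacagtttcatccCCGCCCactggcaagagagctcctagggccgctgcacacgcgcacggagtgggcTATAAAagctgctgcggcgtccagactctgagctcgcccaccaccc
Edn1: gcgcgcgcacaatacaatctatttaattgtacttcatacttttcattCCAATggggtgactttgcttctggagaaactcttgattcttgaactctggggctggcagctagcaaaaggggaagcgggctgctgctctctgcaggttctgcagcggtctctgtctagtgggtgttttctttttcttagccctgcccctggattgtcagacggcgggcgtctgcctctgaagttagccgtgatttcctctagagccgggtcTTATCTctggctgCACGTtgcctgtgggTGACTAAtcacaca
Hpgd held 1 Sp1 core and 1 TATA box, the latter 5 to 10 bases after the annotated start. Edn1 held 1 CCAAT box, 1 GATA motif, 1 hypoxia response core and 1 AP-1 motif, of which the last 3 lay within the 50 bases after the annotated start. Over all 32851 promoters of the table, 35.7% held the Sp1 core, 13.6% the TATA box, 37.4% the CCAAT box, 11.2% the GATA motif, 19.6% the hypoxia response core and 13.9% the AP-1 motif. Of the other 4 genes with a promoter, Ptgs2 held 1 Sp1 core and 2 overlapping hypoxia response matches, Ptges held 2 Sp1 cores, and Ptgs1 and Ednra held none of the 6 motifs. A match is a run of letters, and no binding was measured.

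Ptgis encodes prostacyclin synthase, which makes a vasodilator that also restrains platelets. Its scaled signal was 25.4, 27.9 and 24.1 in saline replicates 1 to 3 and 19.3, 25.4 and 17.1 in rhTM replicates 1 to 3. As for Hpgd, rhTM replicates 1 and 3 lay below all saline-treated mice, and replicate 2 lay among them. The log2 fold change was -0.34 (SE 0.17, 95% interval -0.76 to 0.07, exact permutation p = 0.2), and it was -0.23 on slide 1 and -0.58 on slide 2. Without rhTM replicate 3 it was -0.22. The table gave -0.34, with overlap. A second, dimmer probe for Ptgis read 5.44, 6.36 and 4.88 in saline-treated and 3.30, 4.67 and 3.24 in rhTM-treated mice, a log2 difference of -0.59 without overlap of the groups as scanned, and of -0.44 with overlap by the table.

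Ptgs1 encodes the constitutive cyclooxygenase. It read 6.98, 9.99 and 9.19 in saline replicates 1 to 3 and 9.01, 10.1 and 6.28 in rhTM replicates 1 to 3. Both arrays of slide 2, saline replicate 1 and rhTM replicate 3, were the lowest, and slide 2 lay below slide 1 by a log2 difference of -0.53. Between the groups the log2 fold change was -0.05 (SE 0.22, 95% interval -0.59 to 0.48, exact permutation p = 0.7), and it was -0.0044 on slide 1 and -0.15 on slide 2. It changed sign without saline replicate 2 (0.05) and without rhTM replicate 3 (0.15). By the table, in which both low arrays are rhTM arrays, it was -0.41 (95% interval -0.78 to -0.04, limma adjusted p = 0.333), without overlap. There, slide 2 held rhTM arrays only. With the slide as a block, which in the table sets rhTM replicate 1 alone against the saline arrays, the log2 fold change was -0.11. Without both exchanged arrays it was -0.35. Leaving out rhTM replicate 1 from the table gave -0.56 with a limma adjusted p of 0.047, in a fit that called 566 genes and in which both rhTM arrays were on slide 2 and all saline arrays on slide 1, so that slide and treatment cannot be told apart.

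Ptgs2 encodes the inducible cyclooxygenase, which rises in inflammation. Its signal was 0.603, 0.697 and 0.713 in saline replicates 1 to 3 and 0.665, 0.716 and 0.804 in rhTM replicates 1 to 3. The highest array was rhTM replicate 3 and the lowest saline replicate 1, and the other 4 lay close together. The log2 fold change of 0.12 (SE 0.13, 95% interval -0.20 to 0.43, exact permutation p = 0.4) was -0.03 within slide 1, 0.41 within slide 2 and -0.05 by the table. Ptgs2 was the 1 gene of the 8 whose difference changed sign between the slides.
Ptges encodes the inducible prostaglandin E synthase. It read 34.5, 30.8 and 34.8 in saline replicates 1 to 3 and 40.7, 34.7 and 36.7 in rhTM replicates 1 to 3. Of the rhTM-treated mice, 2 lay above all saline-treated mice and replicate 2 lay just below the highest of them. The log2 fold change was 0.16 by both assignments (scanner output: SE 0.12, 95% interval -0.13 to 0.45, exact permutation p = 0.2). It was 0.098 without rhTM replicate 1 (0.091 by the table) and 0.11 without saline replicate 2 (0.098 by the table). The other probes for Ptges gave 0.02 and -0.21, so that the 3 probes did not share a sign, and their mean gave -0.0081.

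Nos2 encodes inducible nitric oxide synthase. Its signal was 1.47, 1.44 and 1.45 in saline replicates 1 to 3 and 1.19, 1.75 and 1.68 in rhTM replicates 1 to 3. The saline-treated mice were nearly equal, and the rhTM-treated mice lay on both sides of them, replicate 1 below and replicates 2 and 3 above. Its log2 fold change was 0.07 (SE 0.17, 95% interval -0.34 to 0.47, exact permutation p = 0.9), with 0.0015 on slide 1 and 0.20 on slide 2. It was 0.24 without rhTM replicate 1, -0.04 without rhTM replicate 2, -0.0059 without rhTM replicate 3 and -0.11 by the table. In fold, the interval by the scanner output ran from 0.79 to 1.39.

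Edn1 encodes the precursor of endothelin-1. Its signal was 4.33, 4.65 and 6.12 in saline replicates 1 to 3 and 9.53, 4.94 and 5.19 in rhTM replicates 1 to 3. A single mouse, rhTM replicate 1, stood apart, 1.56-fold above the next highest array, and the other rhTM-treated mice lay inside the saline range. Edn1 had a log2 fold change of 0.33 (SE 0.28, 95% interval -0.34 to 1.00, exact permutation p = 0.5), with 0.36 on slide 1 and 0.26 on slide 2, and 0.20 by the table. Without rhTM replicate 1 it was 0.03 as scanned and -0.13 by the table. With slides as a block the table gave 0.87 (limma adjusted p = 0.0696), in a fit that sets rhTM replicate 1 alone against the saline arrays of its slide.
Ednra encodes the endothelin A receptor. It read 5.77, 5.52 and 4.39 in saline replicates 1 to 3 and 5.61, 6.001 and 6.81 in rhTM replicates 1 to 3. Of the rhTM-treated mice, replicates 2 and 3 lay above all saline-treated mice and replicate 1 lay within their range. For Ednra the log2 fold change was 0.24 (SE 0.15, 95% interval -0.13 to 0.60, exact permutation p = 0.2), the same on both slides (0.24 each), and 0.20 by the table. Without saline replicate 3 it was 0.12 as scanned and 0.069 by the table, and without rhTM replicate 3 it was 0.16 and 0.11. Its sign did not change under any of the 24 alternatives, as held also for Ptgis and Hpgd among the 8 genes. Some of these could not change it. With the scanner output, the blocks and the other filters on dim probes left these fold changes the same. The rest reused the same arrays.

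**Figure D2:**
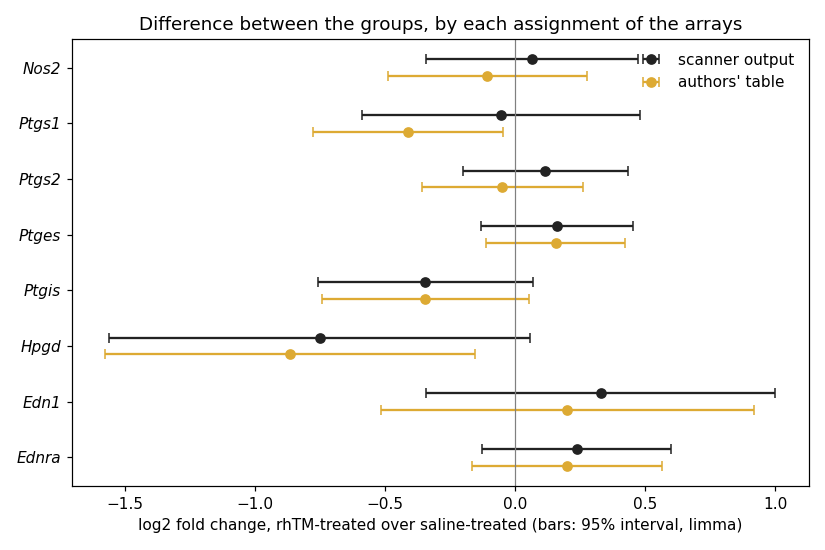
Log2 fold change of the 8 genes, rhTM-treated over saline-treated, by the scanner output (black) and by the authors' table (yellow), with 95% intervals from limma (n = 3 arrays per group). By the scanner output all 8 intervals include 0. By the table those of Hpgd (-1.57 to -0.15) and Ptgs1 (-0.78 to -0.04) lie below 0, and neither passes the adjusted threshold.

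Across the 8 genes, rhTM replicates 1 and 3 each gave the highest value for 2 and the lowest for 2, and rhTM replicate 2 gave the highest for 2 and the lowest for 0. Saline replicate 1 gave the highest for 0 and the lowest for 2, and saline replicates 2 and 3 each gave the highest for 1 and the lowest for 1. Over the 6 arrays, as a description of points that share this one array, the log2 signals of Hpgd had a Pearson r of 0.80 with Ptgis and of -0.87 with Ptges, and those of Edn1 had 0.80 with Ptges and -0.75 with Hpgd. With the slide as a block, limma adjusted p lay between 0.92 and 0.945 for the 8 genes. The log2 fold changes are the same in that fit by construction, since each slide held as many saline as rhTM arrays.
The genes whose array-to-array pattern was most like Hpgd and Edn1 were sought among 2894 genes with a range of at least 1 log2 unit. For Edn1 they were Entpd3, Kcnab1 and Cd14 (r = 0.99 each over 6 arrays). The lipopolysaccharide co-receptor gene Cd14 had a log2 signal of 5.63 in rhTM replicate 1 and 4.08 to 4.60 on the other arrays. For Hpgd they were Abca8a (0.98), Jph2 (0.98) and Myct1 (0.97). Each r rests on 6 points, of which rhTM replicate 1 is an extreme, and was picked as one of the highest among 2894.

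Some cell type markers moved with these genes, and since lungs were measured whole, fewer cells of a type and less RNA per cell cannot be told apart. Beside Ptgis and Hpgd, all 4 of 4 mesothelial markers had lower means in rhTM-treated mice, with a median log2 fold change of -0.65. Their summed scaled signal was 29.4 to 45.3 in saline-treated and 20.3 to 32.3 in rhTM-treated mice, lowest in rhTM replicates 3 and 1, as for Ptgis. Under the table's assignment 0 of 4 were higher (median -0.71), and 3 had groups without overlap, as had 21.7% of all genes by the table. The most abundant of them, Msln, read 25.9, 40.0 and 28.9 in saline-treated and 21.0, 28.8 and 18.3 in rhTM-treated mice. Of 10 endothelial markers, 6 were lower, with a median of -0.24, and their sum was 240 to 247 in saline-treated and 210 to 240 in rhTM-treated mice, lowest in rhTM replicate 1, where Hpgd was lowest too. Under the table's assignment 2 of the 10 were higher (median -0.36), and 3 of the lower ones had groups without overlap, against the same 21.7% of all genes. In that mouse the endothelial receptor gene Calcrl read 5.71, against 18.6 to 28.5 in the other 5, while Cldn5, a tight junction gene of endothelium, was at its highest, 93.7 against 49.2 to 68.3. The sums of the alveolar type 2, smooth muscle and pericyte, monocyte and alveolar macrophage lists were lowest in rhTM replicate 1 too. For alveolar type 2 cells the sum was 1273 there and 1294 to 1762 on the other arrays. Of these 7 markers, 6 were lower as scanned, and 5 were higher by the table. Beside Edn1, the sum of 10 neutrophil markers was 950 to 1105 in saline-treated and 963 to 1234 in rhTM-treated mice. The sum was highest in rhTM replicate 1, but its most abundant markers, S100a9 and S100a8, were not. They read 527 and 305 there, against 531 and 306 in saline replicate 1. Retnlg was highest in rhTM replicate 1, 138.9 against 68.7 to 93.9. Of the 10 neutrophil markers, 7 were higher by either assignment (median 0.08 as scanned and 0.12 by the table). The sum of 6 mast cell and basophil markers was highest in rhTM replicate 1 too, 24.1 against 11.01 to 15.98. Of these 6, 4 were higher as scanned (median 0.13) and 5 by the table (0.41). The platelet marker Pf4 was also highest in that mouse, 24.7 against 8.98 to 13.1, but 4 of the 6 platelet markers had lower means in rhTM-treated mice (median -0.12 as scanned and -0.11 by the table). The sum of 7 markers of alternatively activated macrophages was 251 to 299 in saline-treated and 270 to 461 in rhTM-treated mice, with 5 of 7 higher as scanned and 3 of 7 by the table. It followed Retnla, which read 201 and 168 in rhTM replicates 1 and 3 and 21.0 to 68.9 on the other arrays. Beside Ednra, the sum of 7 fibroblast markers was 114 to 141 in saline-treated and 119 to 176 in rhTM-treated mice, and like Ednra it was highest in rhTM replicate 3 and lowest in saline replicate 3. Of these, 6 of 7 were higher as scanned (median 0.22) and 5 of 7 by the table (0.19). The sum of 9 smooth muscle and pericyte markers was also highest in rhTM replicate 3, 41.4, but nearly as high in saline replicate 1, 41.2, with 5 of 9 higher by either assignment (median 0.16 and 0.09). Without overlap as scanned were 2 of the 9, in opposite directions, against 5.52% of all genes. The pericyte gene Rgs5 read 0.151, 0.130 and 0.160 in saline replicates 1 to 3 and 0.279, 0.340 and 0.501 in rhTM replicates 1 to 3, a log2 fold change of 1.30, and its groups overlapped by the table. Des, which encodes the muscle filament protein desmin, was lower, with 0.946, 0.995 and 0.878 in saline-treated and 0.747, 0.874 and 0.787 in rhTM-treated mice, a log2 fold change of -0.23. The pericyte gene Cspg4 had -0.27 with overlapping groups. None of the markers named here, which were picked after their values were seen, passed the adjusted threshold. Their part in the results was not tested.

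The other genes of the 3 pathways were not called either. Of 26 further genes of arginine and nitric oxide metabolism, 25 were tested (Nos1 was too dim). By mean of log2 values, 17 were higher and 8 lower in rhTM-treated mice. In each direction 0 passed the adjusted threshold, and their median was a log2 fold change of 0.03. Under the table's assignment the balance turned, with 10 of 25 higher and a median of -0.025, and 9 of the 25 changed direction. This was close to all genes by the table, of which 46.0% were higher, with a median of -0.025. There, Gch1 and Odc1 (higher) and Qdpr and Ddah1 (lower) had groups without overlap, against 21.7% of all genes. The highest was Odc1, which encodes ornithine decarboxylase, the enzyme that starts polyamine synthesis. Odc1 read 13.3, 11.7 and 11.3 in saline replicates 1 to 3 and 26.1, 10.6 and 19.3 in rhTM replicates 1 to 3. It was thus high in rhTM replicates 1 and 3 and lowest of all in replicate 2, with a log2 fold change of 0.54 (SE 0.31), and by the table, which moves replicate 2 to the saline group, of 0.75 without overlap (limma adjusted p = 0.316). The lowest was Ddah1, whose enzyme degrades methylated arginines that inhibit nitric oxide synthases, at -0.20 (SE 0.27) with 0.645 in rhTM replicate 1 and 0.947 to 1.26 on the other arrays. By the table Ddah1 was -0.47 without overlap. With the slide as a block the table gave a log2 fold change of -0.92 for Ddah1. That fit was added after the data were seen and sets rhTM replicate 1 alone against the saline arrays.
Oat, which encodes ornithine aminotransferase, was the 1 gene of this list without overlap by the scanner output, where 5.52% of all genes had none. It read 23.7, 22.9 and 22.2 in saline-treated and 27.5, 24.6 and 26.2 in rhTM-treated mice, a log2 fold change of 0.19 (SE 0.11, limma adjusted p = 0.9999), and its groups overlapped by the table (0.15). The endothelial nitric oxide synthase gene Nos3, at 0.29 (SE 0.24), again had its highest value in rhTM replicate 1, 11.2 against 5.90 to 7.30.

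Of 22 further prostanoid genes, 19 were tested (Hpgds, Ptger3 and Ptgdr were too dim). By mean of log2 values, 4 were higher and 15 lower in rhTM-treated mice, and 0 passed the adjusted threshold. The groups overlapped for all 19 (5.52% of all genes had none), and the median was -0.04. Under the table's assignment 9 of 19 were higher, and the groups did not overlap for Ptgr1 and Ptgdr2 (higher) and for Tbxas1, Akr1b3 and Tbxa2r (lower), again beside 21.7% of all genes. The direction of 9 of the 19 turned with the assignment, and the median by the table was -0.0019. The extremes were Ptgr1, which encodes a prostaglandin reductase, at 0.25 (SE 0.14), and Ptger1, a prostaglandin E receptor gene near the lower end of the measured signals, at -0.47 (SE 0.23) as scanned and 0.15 by the table. The prostaglandin transporter gene Slco2a1, whose product brings prostaglandins into cells before the Hpgd enzyme acts, read 30.7, 30.6 and 26.9 in saline-treated and 20.4, 29.4 and 27.2 in rhTM-treated mice. It was lowest in rhTM replicate 1, as Hpgd was, with a log2 fold change of -0.21 (SE 0.17). Slco2a1 and Nos3 were picked after their values were seen.
Of 6 further endothelin genes, 3 were tested (Edn2, Edn3 and Ece2 were too dim). Ednrb, which encodes the endothelin B receptor, read 0.386, 0.375 and 0.447 in saline replicates 1 to 3 and 0.647, 0.451 and 0.513 in rhTM replicates 1 to 3. All rhTM-treated mice lay above all saline-treated mice, by a narrow margin for replicate 2, with a log2 fold change of 0.40 (SE 0.17, limma adjusted p = 0.9999, exact permutation p = 0.1). By the table its groups overlapped, with 0.25. Ece1, which encodes an enzyme that cleaves the endothelin precursor, was at 0.0058 (SE 0.14) and Mme, a neutral endopeptidase gene, at -0.26 (SE 0.26).

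**Figure D3:**
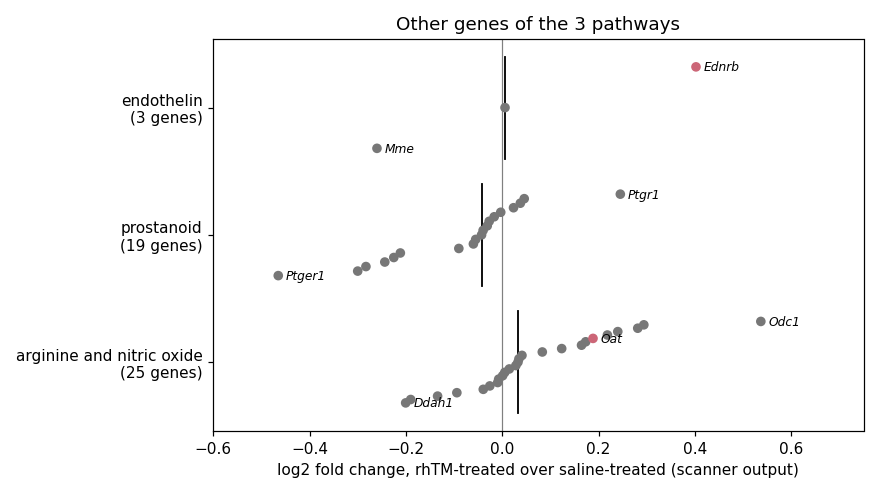
Log2 fold change, rhTM-treated over saline-treated by the scanner output, of the 25, 19 and 3 further genes tested in the 3 pathways, 1 point per gene, ordered within each list. Red points (Oat, Ednrb) mark genes whose groups do not overlap, the black lines are medians (0.03, -0.04 and 0.0058), and the names also mark the highest and lowest gene of each list.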

How the data were processed

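RNA of 6 mouse lungs was measured on 1-colour Agilent arrays, 1 mouse per array. The authors deposited the scanner output, whose processed signal is a background-corrected intensity on a linear scale, not scaled between arrays (Feature Extraction 10.7.3.1 in the file headers, 9.1 in the submitters' processing notes). They also deposited a table of these intensity values. For the RNA kit, labels and methods name different products. Control spots were left out, spots of a probe averaged, and 398 probes dropped whose spots were all outlier-flagged on an array. Signals were divided by the array's 75th percentile and put on the log2 scale. Probe accessions were matched to RefSeq symbols (32994 of 56605 probes, 22911 genes). The brightest probe stood for its gene, and the gene was kept if that probe was well above background on every array of 1 group or both. This left 16362 genes.

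Groups were taken from the sample labels and compared with limma 3.58.1 (lmFit, eBayes) in R 4.3.3, with Benjamini-Hochberg adjustment and a threshold of 0.05. For the 8 genes and the pathway genes an exact permutation test over the 20 splits was added. The fit was tested on simulated data. Alternatives were the authors' table, normexp (offset 50), quantile normalization, other filters, mean of probes, slide and replicate blocks, the methods' t-test and each array left out. Slide 1 alone and the table with slides as a block were chosen after seeing the data. The small number of arrays limits the precision.

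The 8 genes, pathway lists and 14 lists of cell type markers were chosen with earlier results of these data known. Beside the 8, each pathway's highest and lowest gene and those without overlap were named, and for the 2 most variable of the 8 the 3 genes most like each. Some results are not reported here.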

Additional observations from a re-analysis of the deposited data

How the results depend on the processing

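Call counts were 0 under all alternatives run on the scanner output, also for the 8 genes and the pathway lists, and the methods' t-test called 0 genes after Benjamini-Hochberg adjustment (339 at an unadjusted p under 0.05, against 305 by limma). At the methods' own rule, an unadjusted p under 0.01 with at least a 2-fold rise or the corresponding fall, it took 1 gene (Rgs5) and 0 of the 8 by the scanner output, and 14 genes and 0 of the 8 by the table. Leaving out 1 array at a time from the scanner output or the table gave 0 to 566 genes and 0 to 1 of the 8 genes called, and 0 to 4 of the 8 without overlap, where 8.85% to 45.9% of all genes had none (34.8% for the 4, the table without rhTM replicate 2). With slides as a block, the table called 432 genes, 1 of the 8 (Hpgd) and 1 pathway gene (Ddah1). It sets 1 rhTM array against the saline arrays. The number of the 8 genes without overlap was 2 by the table (Hpgd, Ptgs1), 1 with normexp (Ednra), 2 on slide 1 only (Ednra, Hpgd) and 5 without both exchanged arrays (Ednra, Hpgd, Ptges, Ptgis, Ptgs1), where 21.7%, 5.59%, 26.5% and 41.2% of all genes had none. By the table the log2 fold change turned for Nos2 (-0.11) and Ptgs2 (-0.048), and with slides as a block there it was -0.37 for Nos2 and -0.092 for Ptgs2. It was -0.029 for Nos2 without both exchanged arrays, -0.032 for Ptgs2 on slide 1 only and -0.0081 for Ptges with the mean of probes. With each array left out in turn, by either assignment, it ran from -0.22 to 0.24 for Nos2, -0.56 to 0.15 for Ptgs1, -0.16 to 0.18 for Ptgs2 and -0.13 to 0.50 for Edn1. For those that kept their sign it ran from 0.091 to 0.21 for Ptges, 0.069 to 0.31 for Ednra, -1.16 to -0.40 for Hpgd and -0.51 to -0.22 for Ptgis. The cause of these turns was not tested. Whether replicate numbers paired the mice is not known. The deviations of same-numbered arrays correlated at -0.30, 0.44 and -0.45, which was read from the arrays and not from the fits. The highest such value, 0.64, was that of saline replicate 1 with rhTM replicate 3, which shared slide 2 as scanned. With 3 arrays a group, such values cannot show whether mice were paired. The fit with the replicate block, whose fold changes are the same by construction (-0.75 for Hpgd), called 0 genes (limma adjusted p = 0.9999 for Hpgd). With 3 arrays a group, a difference of 1 log2 unit lay within the 95% interval of Hpgd (downward).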
